A study of Homo sapiens with 12 samples.

Results

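The 664 noncoding transcripts described here are long noncoding RNAs, host transcripts of small RNAs and small RNA rows of the PC-3M table. They were chosen by their level, as the rows annotated as ncRNA whose mean deposited value reached 20 in the 3 control or the 3 KMT9a siRNA libraries, with the row of highest mean kept for each symbol. A deposited value of 20 stands for 34 to 44 read ends, depending on the library. The table held 2886 noncoding symbols in 3290 rows, among 24359 symbols and 38763 rows in all. Both group means reached 20 for 546 of the 664, the control mean alone for 59 and the KMT9a siRNA mean alone for 59. The levels of the compared groups thus chose the members. The 118 that passed through 1 group had a direction that the rule fixes in part, so counts and medians below are over the 546 unless another number is given, and the 118 are described by their levels.

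The study sequenced RNA of 2 established human cell lines after transfection with control siRNA or with siRNA against KMT9a. N6AMT1 encodes KMT9a, a methyltransferase that writes a histone H4 lysine mark together with TRMT112. PC-3M, used at passage 11, derives from the PC-3 prostate carcinoma line and is metastatic. MCF10A, used at passage 13, is a non-transformed breast epithelial line. Each line gave 3 libraries with control siRNA and 3 with KMT9a siRNA, labelled as biological replicates. The labels do not say whether these were separate cultures, and p-values therefore reflect how far these libraries spread. The sources used here name no other agent.

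Host transcripts of small nucleolar RNAs (snoRNAs) carry the snoRNAs in their introns, and after splicing the exons are left as a long RNA that is often short-lived, because it is degraded by nonsense-mediated decay during translation. Many of these hosts start with a terminal oligopyrimidine tract, a run of C and T that also marks ribosomal protein genes and ties their translation to growth signals. MicroRNA hosts are cut by the Drosha and DGCR8 complex, which releases the hairpin. Antisense RNAs are transcribed across or beside a gene on its opposite strand, and intergenic long RNAs such as NEAT1 and MALAT1 act largely in the nucleus.

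Mature microRNAs encoded by the host and hairpin loci whose levels are described below are printed here with the seed, bases 2 to 8, in capitals. The libraries did not measure mature microRNAs, and the sequences are printed for reference. A sequence need not identify a single locus, since MIR100HG and MIRLET7BHG both hold a let-7a row. They are RefSeq entries on GRCh38.p14.
hsa-miR-21-5p: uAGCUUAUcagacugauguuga
hsa-miR-22-3p: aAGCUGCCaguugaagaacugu
hsa-miR-221-3p: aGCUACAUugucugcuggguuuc
hsa-miR-222-3p: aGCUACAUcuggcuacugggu
hsa-miR-23a-3p: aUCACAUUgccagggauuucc
hsa-miR-27a-3p: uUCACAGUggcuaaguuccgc
hsa-miR-24-3p: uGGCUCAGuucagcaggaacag
hsa-miR-31-5p: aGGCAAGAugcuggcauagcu
hsa-miR-100-5p: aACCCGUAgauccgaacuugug
hsa-miR-125b-5p: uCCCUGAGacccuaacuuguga
hsa-let-7a-5p: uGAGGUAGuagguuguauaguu
hsa-let-7b-5p: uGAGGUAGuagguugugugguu
hsa-miR-17-5p: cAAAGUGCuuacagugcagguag
Among these, miR-221 and miR-222 share the seed GCUACAU, and let-7a of the MIR100HG locus shares the seed GAGGUAG with let-7b of the MIRLET7BHG locus.

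The starts of 3 host transcripts without a coding row on their strand held an oligopyrimidine tract, defined as a C at the annotated start followed by at least 4 pyrimidines. Each line shows 20 bases before and 20 from the start, with the tract in capitals, from RefSeq promoters on GRCh38.p14.
ZFAS1: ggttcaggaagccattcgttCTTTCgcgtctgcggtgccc
SNHG5: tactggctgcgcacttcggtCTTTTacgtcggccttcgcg
SNHG12: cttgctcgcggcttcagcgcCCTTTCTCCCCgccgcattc
ZFAS1 starts on the plus strand of chr20:49278622-49278661, SNHG5 on the minus strand of chr6:85678714-85678753 and SNHG12 on the minus strand of chr1:28581854-28581893. SNHG4, which shares its strand with a coding row, also held a tract, of 13 bases. Its log2 fold change was -0.18 and did not pass. RefSeq promoters were matched for 29 of the 36 hosts without a coding row on their strand. Of these, 3 (10.3%) held the tract, against 4.04% of the 27305 promoters in the RefSeq table. The CCAAT motif (NF-Y, both strands) was in 34.5% of the host promoters and 35.7% of all promoters. The CACGTG motif (E-box) was in 6.90% against 7.43%, and TATAAA in 13.8% against 12.0%. These matches describe letters at annotated starts; the RNA starts were not measured.

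Depth in PC-3M ranged from 40236221 to 53401602 read ends per library, and the 664 members had a median of 1131 read ends over the 6 libraries. The targeted transcript, N6AMT1, was at 11.0 to 12.0 CPM (counts scaled to a common library total) in the control libraries and at 2.58 to 3.01 CPM in the KMT9a siRNA libraries. The epithelial markers KRT8, KRT18 and KRT19 and the mesenchymal VIM were present in every PC-3M library, and the prostate luminal KLK3, the fibroblast DCN and the leukocyte PTPRC were at or near 0. Among the epithelial markers, KRT19 went from 249 to 270 CPM with control siRNA to 879 to 1100 CPM with KMT9a siRNA, KRT8 from 144 to 150 CPM to 318 to 368 CPM, and CDH1 from 7.54 to 8.61 CPM to 19.4 to 20.8 CPM. The fibroblast marker COL1A1 was present, at 49.0 to 50.6 CPM with control siRNA and 29.5 to 39.5 CPM with KMT9a siRNA. The endothelial marker PECAM1 was at 0.259 to 0.549 CPM with control siRNA and at 2.00 to 2.28 CPM with KMT9a siRNA. The part of these markers in the results was not tested. KMT9a siRNA replicate 2 stood apart from its group. Its counts differed from the other two KMT9a siRNA libraries with a chi-square per degree of freedom of 21.8 and 26.3, against 4.69 between those and 3.16 to 4.64 among the controls. Without that library 264 of the 664 members were called higher and 228 lower, beside 265 and 217 with it, the 118 included.

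Noncoding transcripts differed in both directions after KMT9a siRNA in PC-3M. Of the 546 members with both group means of at least 20, 209 rose and 173 fell at an adjusted p under 0.05 (limma, Benjamini-Hochberg over all 14958 tested genes), and 164 did not pass. Over all tested genes 74.5% passed, 37.2% higher and 37.3% lower, and these shares are the background for the counts of members. The median log2 fold change was 0.09 over the 546 and 0.00 over all genes. The 3 control and the 3 KMT9a siRNA libraries did not overlap for 73.6% of them, against 77.0% of all tested genes. Transcripts named below for the size of their difference were picked among members that passed and whose groups do not overlap. Both traits therefore hold for them by choice. Scaling by column totals shifted the median of all genes to -0.17 and their calls to 4384 higher and 6821 lower, and under it 178 of the 546 were higher and 213 lower.

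The share of read ends that fell in the members was 1.62%, 1.63% and 1.59% in the control libraries and 2.17%, 2.04% and 2.10% in the KMT9a siRNA libraries. All KMT9a siRNA libraries lay above all controls. The means were 1.61% ± 0.0197 and 2.10% ± 0.0645 (SD, n = 3 each). These shares are a description, because levels in the same libraries chose the members. NEAT1 and MALAT1 together went from 0.336% to 0.511%. The 36 host transcripts without a coding row on their strand went from 0.175% to 0.350%, a ratio of 2.0. In these bulk libraries, more RNA per cell and more cells with the RNA cannot be told apart.

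**Figure D1:**
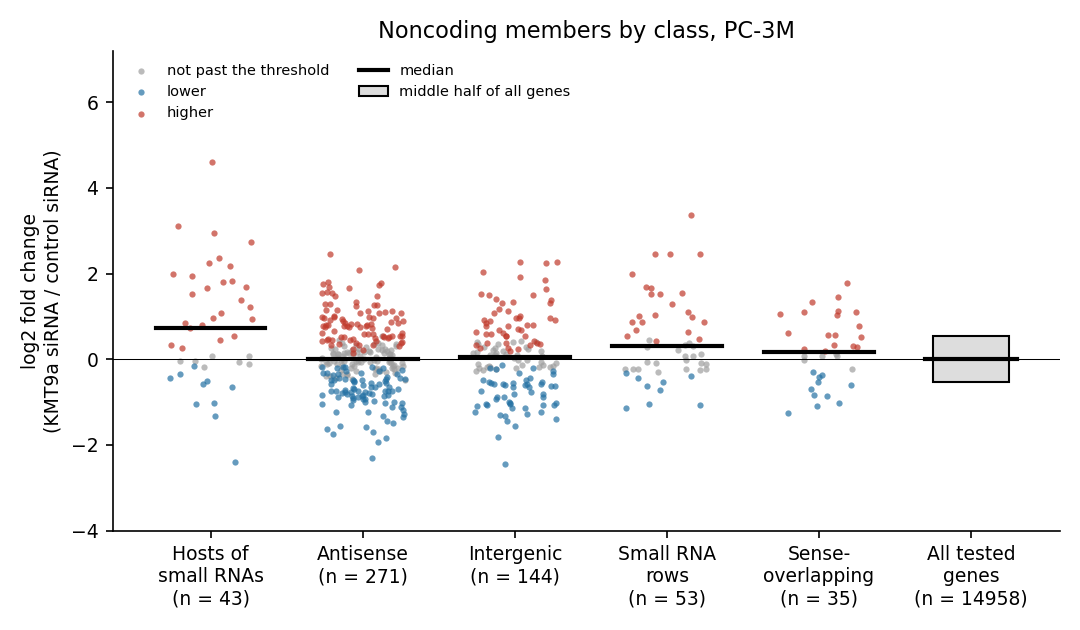
Log2 fold change of each of the 546 members with both group means of at least 20 (point) in PC-3M by class, with the class median (black bar), the limma call (red higher, blue lower, grey not past an adjusted p of 0.05) and, at the right, the middle 50% of all 14958 tested genes. The hosts of small RNAs have a median of 0.74 and the small RNA rows one of 0.31, while antisense and intergenic RNAs have medians of 0.00 and 0.05.

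Host transcripts of small RNAs were mostly higher after KMT9a siRNA. Of 43 hosts, 26 rose, 10 fell and 7 did not pass, with a median log2 fold change of 0.74. The 33 hosts without a protein-coding row on the same strand gave 21 higher and 8 lower, with a median of 0.84. Among noncoding hosts of snoRNAs without such a row, 14 of 18 rose and 3 fell, with a median of 1.24, and scaling by column totals left those counts at 14 and 3. Protein-coding genes that host snoRNAs gave 73 higher and 37 lower of 128, with a median of 0.21. MicroRNA hosts without a coding row gave 7 higher and 5 lower of 15, with a median of 0.08. No test was made between these groups.

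LRRC75A-AS1, now named SNHG29, carries 3 box C/D snoRNAs (SNORD49A, SNORD49B and SNORD65) and lies on the plus strand of chr17:16342301-16345340 (hg19). Its level was 256, 281 and 269.9 CPM in the control libraries and 1175, 1242 and 1215 CPM in the KMT9a siRNA libraries. The groups did not overlap, and the log2 fold change was 2.17 (SE 0.049, adjusted p = 2.97e-12 by limma).

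ZFAS1, the host of SNORD12, SNORD12B and SNORD12C on the plus strand of chr20:47894715-47905795, has one of the printed tract starts. It was at 86.6, 95.1 and 92.7 CPM with control siRNA and at 469.5, 457 and 476 CPM with KMT9a siRNA. Every KMT9a siRNA library lay above every control, with a log2 fold change of 2.35 (SE 0.0505, adjusted p = 2.06e-12 by limma). GAS5, a snoRNA host known to accumulate in growth-arrested cells, lies on the minus strand of chr1:173833039-173837125. Its level was 19.4, 20.1 and 18.4 CPM in controls and 98.7, 78.1 and 97.5 CPM after KMT9a siRNA. All 3 KMT9a siRNA libraries were higher, replicate 2 the least, and the log2 fold change was 2.23 (SE 0.0868, adjusted p = 2.25e-10 by limma).

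The other snoRNA hosts showed a range of sizes. SNHG6 rose by 1.99, EPB41L4A-AS1 by 1.82, SNHG7 by 1.79, SNHG15 by 1.70, SNHG5 by 1.67 and SNHG8 by 1.39 on the log2 scale, and each had groups that did not overlap. SNHG1, whose row holds 8 snoRNA rows, went from 84.8, 87.4 and 86.3 CPM to 184, 174 and 193 CPM. That is a log2 fold change of 1.09 (SE 0.0528, adjusted p = 1.53e-09 by limma). SNHG17 rose by 0.96, SNHG11 by 0.55, SNHG12 by 0.44 and SNHG16 by 0.32. SNHG12, whose start holds the longest of the 3 printed tracts, was thus among the smaller differences.

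Several hosts fell or did not pass. DANCR, a host of SNORA26, was at 140.3, 134 and 129 CPM in controls and 85.3, 94.3 and 90.7 CPM after KMT9a siRNA. The groups did not overlap, and it fell by 0.57 on the log2 scale (SE 0.0566, adjusted p = 1.15e-06 by limma). SNHG10, which holds the Cajal body RNA SCARNA13, fell by 0.50. SNHG9 was at 1.47, 1.96 and 1.74 CPM and 1.92, 1.65 and 1.39 CPM, with overlapping groups (limma, adjusted p = 0.783). SNHG3, SNHG4 and SNHG20 did not pass either, and each shares its strand with a protein-coding row.

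Rows of the snoRNAs themselves were sparse. The snoRNA hosts without a coding row, PWARSN included, were 19 and held 51 snoRNA rows, and their median was 59 read ends over the 3 control libraries and 67 over the 3 KMT9a siRNA libraries. These read ends are not scaled for depth, which was lower in every KMT9a siRNA library than in every control. Of the 40 rows that could be tested, 11 were higher and 1 lower, and the rest did not pass. Over all tested genes 74.5% passed. Reads over a snoRNA row may come from the unspliced host or from the snoRNA, and these cannot be told apart here.

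**Figure D2:**
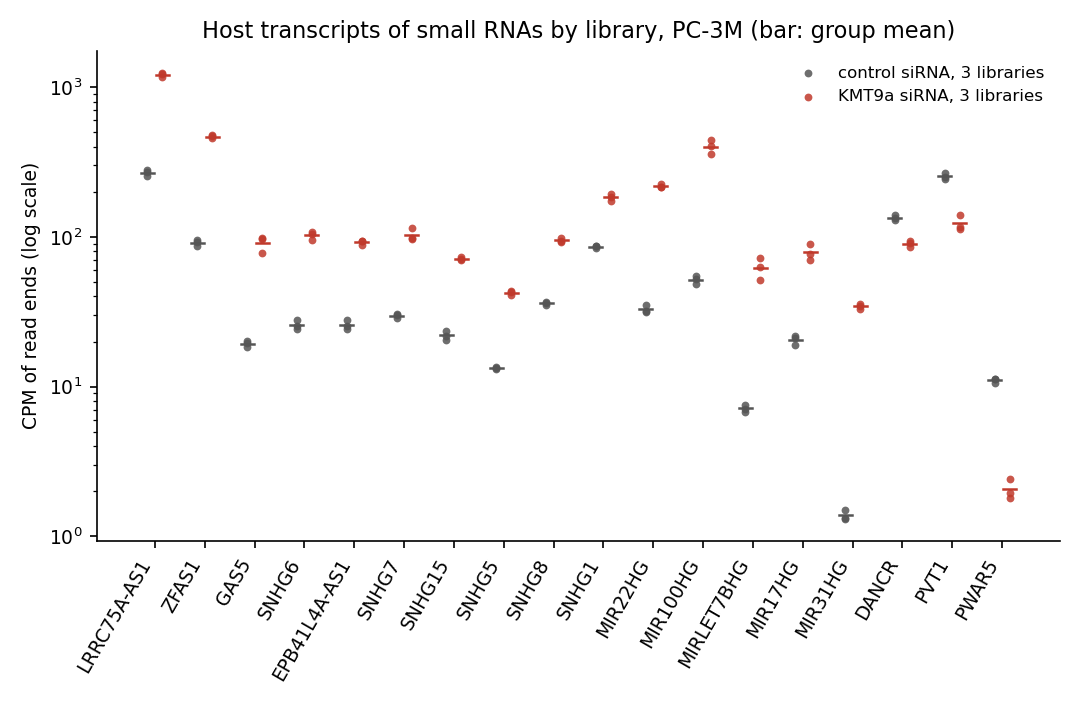
Level of 18 host transcripts in each PC-3M library (points, CPM of read ends, log axis) with group means (bars), grey for control siRNA and red for KMT9a siRNA, 3 libraries each. From LRRC75A-AS1 to MIR31HG every red point lies above every grey one, and for DANCR, PVT1 and PWAR5 every red point lies below.

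MicroRNA hosts held the largest differences in the host class. MIR31HG, the host of miR-31, on the minus strand of chr9:21454267-21559697, was at 1.33, 1.31 and 1.5 CPM in controls and 34.6, 33.1 and 35.5 CPM after KMT9a siRNA. The groups did not overlap, with a log2 fold change of 4.60 (SE 0.0997, adjusted p = 2.26e-12 by limma). The row spans the interferon gene IFNE on the same strand, which had a log2 fold change of 3.82, and reads of the pair may be shared. MIRLET7BHG, the host of let-7a-3 and let-7b, was at 6.79, 7.55 and 7.13 CPM and 62.8, 72.2 and 51.6 CPM. All KMT9a siRNA libraries were higher, with a log2 fold change of 3.10 (SE 0.107, adjusted p = 8.5e-11 by limma).

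MIR100HG, which carries miR-100, let-7a-2 and miR-125b-1 on the minus strand of chr11:121959811-122073770, was at 48.3, 54.5 and 52.1 CPM with control siRNA and 444, 355 and 401 CPM with KMT9a siRNA. It rose by 2.95 (SE 0.0761, adjusted p = 8.31e-12 by limma), and it shares its strand with the coding row BLID. MIR22HG, the host of miR-22, was at 31.4, 35.2 and 32 CPM and 226, 215 and 216 CPM. It rose by 2.74 in groups that did not overlap (SE 0.0582, adjusted p = 1.95e-12 by limma). MIR17HG, the host of the miR-17-92 cluster and a known target of MYC, was at 21.6, 21.2 and 18.9 CPM in controls and 90.0, 70.0 and 76.4 CPM after KMT9a siRNA, a log2 fold change of 1.93 (SE 0.0897, adjusted p = 1.06e-09 by limma).

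Hosts of microRNAs that fell included PVT1, the long RNA next to MYC that holds MIR1204 to MIR1207. Its level was 266, 250.0 and 245 CPM in controls and 117, 139.9 and 112 CPM after KMT9a siRNA. No KMT9a siRNA library reached a control, and PVT1 fell by 1.05 (SE 0.0742, adjusted p = 5.02e-08 by limma). MIR600HG fell by 1.01 and MIR4435-2HG by 0.64. MIR497HG was at 5.27, 6.51 and 5.43 CPM and 4.86, 6.51 and 5.39 CPM, overlapping groups that did not pass (limma, adjusted p = 0.779).

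The neighbouring transcripts PWAR5, IPW and PWARSN of the imprinted Prader-Willi region on chromosome 15 were lower, a set singled out after the values were seen. PWAR5, the host of SNORD64 and SNORD108 at chr15:25230007-25233379, was at 11.2, 11.3 and 10.5 CPM in controls and 2.42, 1.8 and 1.96 CPM after KMT9a siRNA, and fell by 2.40 (SE 0.128, adjusted p = 3.59e-09 by limma). IPW, an imprinted long RNA of the same strand, was at 33.8, 33.4 and 31.5 CPM and 12.8, 9.69 and 11.1 CPM and fell by 1.56 (SE 0.0964, adjusted p = 1.43e-08 by limma). PWARSN passed through the control mean only, with 3.94, 3.26 and 3.27 CPM in controls and 0.518, 0.847 and 0.602 CPM after KMT9a siRNA. SNRPN, the coding gene upstream on that strand, went from 85.3 ± 2.68 to 46.7 ± 5.22 CPM (SD, n = 3; limma, adjusted p = 3.24e-07), while UBE3A on the opposite strand was at 169 ± 3.69 and 171 ± 16.9 CPM (limma, adjusted p = 0.867).

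Small RNA rows mostly followed the genes around them. Of 84 such rows, 31 passed through 1 group only. Of the other 53, 23 rose and 9 fell, with a median log2 fold change of 0.31. A longer row on the same strand enclosed 45 of the 53, and 41 of these were protein-coding. Across those 45 pairs the log2 fold change of the small row and of the enclosing gene had a Pearson r of 0.89, and 38 had the same sign. The pairs share libraries and may share reads, so the correlation is a description. The 3 MIR1244 rows are copies within PTMA sequences and share reads: each rose by 2.45, beside 2.42 for PTMA. They count as 3 of the 45 pairs, so the pairs are not all distinct. Among all 84 rows, the MIR1184 rows lie in F8, the MIR4315 rows in PLEKHM1, and MIR3064 and MIR5047 both in DDX5.

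MIR22, inside MIR22HG on the minus strand of chr17:1617197-1617281, was at 0.885, 1.22 and 0.85 CPM in controls and 10.7, 10.9 and 9.84 CPM after KMT9a siRNA. Its groups did not overlap, with a log2 fold change of 3.37 (SE 0.154, adjusted p = 9.01e-10 by limma). MIR1204, inside PVT1, fell by 1.07, close to the value for its host. MIR3189, in GDF15, had 0.48 where GDF15 had -1.84, and differed in sign from its enclosing gene.

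Several microRNA rows with no longer annotated row around them were low in the controls and higher after KMT9a siRNA. They passed the rule through that group alone, were singled out after their values were seen, and are given without a test. MIR21 was at 0.142, 0.463 and 0.23 CPM in controls and 5.13, 5.75 and 5.1 CPM after KMT9a siRNA; it begins 675 bases past the end of VMP1, whose level went from 144 to 446 CPM. MIR221 was at 0.832, 0.648 and 0.283 CPM and 7.82, 6.75 and 6.62 CPM, and its neighbour MIR222, which shares its seed, at 0.0177, 0.0187 and 0 CPM and 1.38, 0.869 and 1.02 CPM. No control library reached any KMT9a siRNA library for these 3 rows, a separation that the rule fixes in part.

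The cluster of MIR23A, MIR27A and MIR24-2 on the minus strand of chromosome 19 was low in the controls in all 3 rows. Each passed the rule through the KMT9a siRNA mean alone and is given without a test. MIR23A was at 0.124, 0.111 and 0.177 CPM in controls and 2.05, 2.05 and 1.41 CPM after KMT9a siRNA. MIR27A was at 0.142, 0.0925 and 0.124 CPM and 3.58, 3.63 and 2.72 CPM. MIR24-2 was at 0.195, 0.111 and 0.0886 CPM and 6.86, 5.82 and 5.34 CPM. LOC284454, now named MIR23AHG, is the adjoining long row; it counts as intergenic here, and was at 43.3, 41.9 and 39.2 CPM and 151, 160.5 and 137 CPM, a log2 fold change of 1.85 (SE 0.0672, adjusted p = 1.29e-10 by limma). Reads over a hairpin row may come from longer RNA or from the hairpin, which cannot be told apart here, and the mature microRNAs of these loci were not measured.

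**Figure D3:**
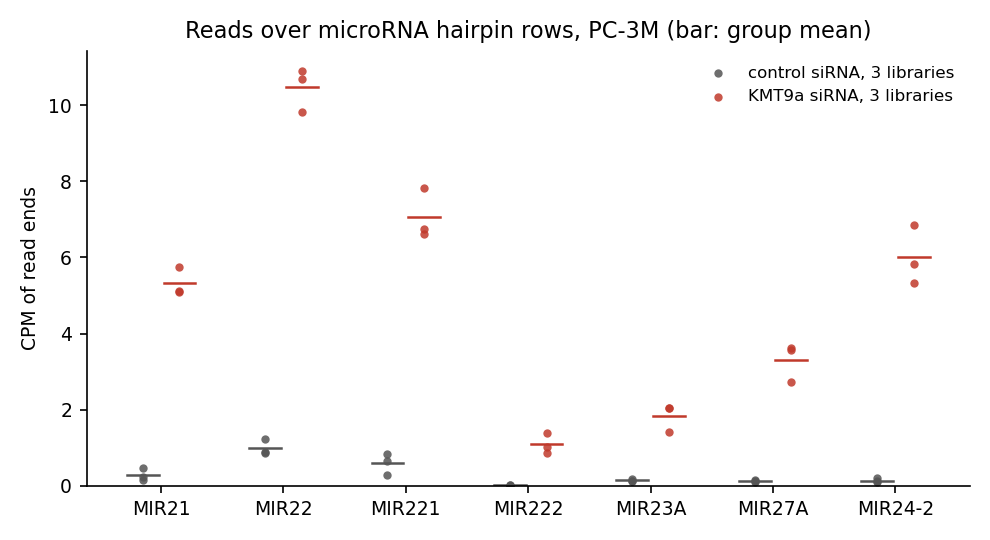
Level of 7 microRNA rows in each PC-3M library (points, CPM of read ends, linear axis from 0) with group means (bars), grey for control siRNA and red for KMT9a siRNA. The control libraries stay at or below 1.22 CPM in all 7 rows, and every KMT9a siRNA library lies above every control of its row. All rows but MIR22 passed the rule through the KMT9a siRNA mean alone, which fixes that direction in part.

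Antisense RNAs formed the largest class and were split evenly. Of 271, 91 rose and 90 fell, with a median log2 fold change of 0.00; scaling by column totals gave 75 and 115. A tested coding partner was found for 246 of those without a coding row on their strand, and over these pairs the log2 fold changes of antisense RNA and partner had a Pearson r of 0.49. Where the spans of the pair overlapped, r was 0.62 over 180 pairs, with 52 pairs both higher, 37 both lower, 4 with the antisense RNA higher and the partner lower, and 14 the reverse. Where the spans did not overlap, r was 0.20 over 66 pairs, with 11 both higher, 8 both lower, 5 with the antisense RNA higher and the partner lower, and 15 the reverse. The strand of the reads is not given in the sources used here, so reads from overlapping exons of a pair cannot be told apart, and the pairs share libraries.

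PAX8-AS1 overlaps the transcription factor gene PAX8 and lies at chr2:113993846-114024580. It was at 18.1, 18.1 and 19 CPM in controls and 82.6, 80.9 and 83.4 CPM after KMT9a siRNA. All KMT9a siRNA libraries were higher, with a log2 fold change of 2.16 (SE 0.0582, adjusted p = 1.19e-11 by limma), and PAX8 had 3.61. CDKN2B-AS1, also called ANRIL, runs across CDKN2B, which encodes a cyclin-dependent kinase inhibitor. Its level was 2.03, 2.42 and 2.27 CPM and 11.4, 8.4 and 9.23 CPM, and it rose by 2.08 (SE 0.136, adjusted p = 2.34e-08 by limma). CDKN2B went from 125 ± 5.14 to 816 ± 23.6 CPM (SD, n = 3), so its read ends far outnumbered those of the antisense row.

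GAS5-AS1, opposite the end of GAS5, was at 1.04, 1.24 and 1.22 CPM in controls and 6.63, 6.17 and 6.98 CPM after KMT9a siRNA. It rose by 2.46 (SE 0.138, adjusted p = 6e-09 by limma), beside 2.23 for GAS5 itself. NR2F1-AS1, whose span does not overlap that of the nuclear receptor gene NR2F1, went from 3.41, 3.18 and 3.75 CPM to 12.1, 12.1 and 12.3 CPM and rose by 1.80 (SE 0.102, adjusted p = 6.26e-09 by limma), while NR2F1 had 0.43. INHBA-AS1 passed through KMT9a siRNA only. It was at 0.0531, 0.0369 and 0.0179 CPM and 2.27, 1.69 and 2.25 CPM, and INHBA, which encodes the activin A subunit, went from 2.49 to 320 CPM.

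Among antisense RNAs that fell, the row of MIF-AS1 had the most read ends of the class. Its level was 630.5, 575 and 635 CPM in controls and 296, 416 and 304 CPM after KMT9a siRNA, with replicate 2 the highest of the latter. It fell by 0.87 (SE 0.103, adjusted p = 6.33e-06 by limma), and MIF, the cytokine gene it overlaps, had -0.88. MIF was at a similar level, with 570.8 ± 31.5 CPM in controls and 313.8 ± 63.1 CPM after KMT9a siRNA (mean and SD). The spans of MIF-AS1 and MIF overlap by 845 bases. Without strand, their reads cannot be told apart, and how many read ends of the row come from MIF was not tested. USP2-AS1 fell by 2.31, from 5.01, 4.29 and 4.55 CPM to 1.01, 0.913 and 0.785 CPM (SE 0.159, adjusted p = 3.98e-08 by limma), and the deubiquitinase gene USP2 had -2.39. The spans of that pair do not overlap.

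Other antisense RNAs went against their partners. ZBED5-AS1 was at 14.4, 13.2 and 12.8 CPM and 3.33, 3.14 and 4.11 CPM and fell by 1.93 (SE 0.117, adjusted p = 1.23e-08 by limma), where ZBED5 had 0.57. EXOC3-AS1 fell by 1.85 beside 0.27 for the exocyst gene EXOC3. OIP5-AS1, known as Cyrano in zebrafish, was singled out after its values were seen; it went from 12.6, 13.2 and 14.1 CPM to 41.8, 41.6 and 43.7 CPM with a log2 fold change of 1.67 (SE 0.0701, adjusted p = 4.58e-10 by limma), and OIP5, a centromere protein gene, had -2.40. The spans of these 3 pairs do not overlap. FAM222A-AS1 fell by 1.75 (SE 0.118, adjusted p = 3.17e-08 by limma), and its overlapping partner FAM222A did not pass, with 0.33 (limma, adjusted p = 0.0910).

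**Figure D4:**
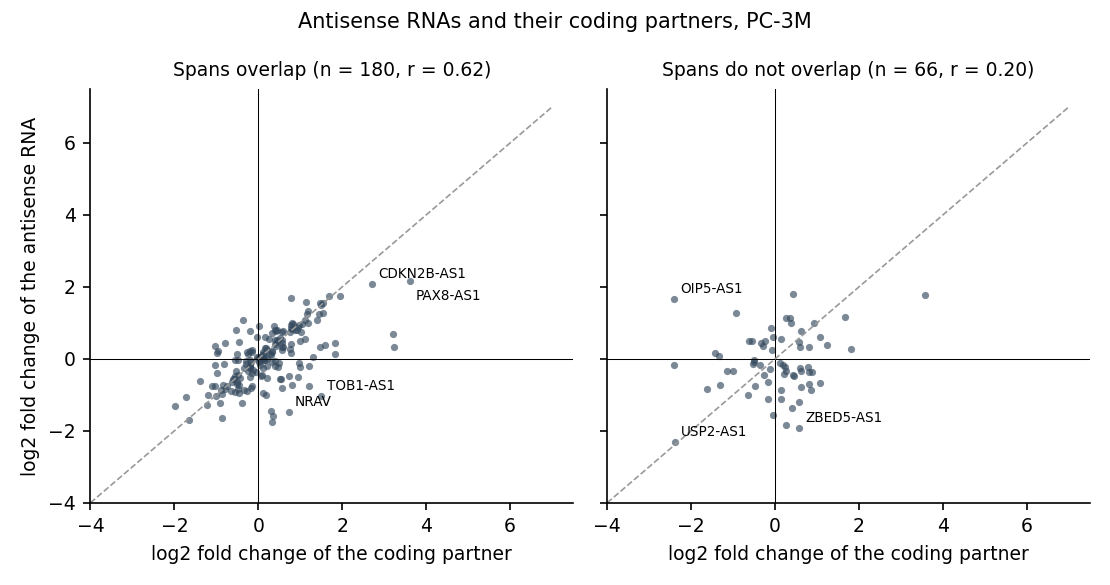
Log2 fold change of each antisense RNA with both group means of at least 20 (vertical axis) against that of its coding partner (horizontal axis) in PC-3M, split by whether the annotated spans overlap; the dashed line marks equal values. The 180 overlapping pairs have r = 0.62 and the 66 others r = 0.20, with OIP5-AS1 at 1.67 where OIP5 is at -2.40.

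Intergenic long RNAs were split evenly as well. Of 144, 51 rose and 53 fell, with a median log2 fold change of 0.05, and scaling by column totals gave 43 and 62. NEAT1, a gene for RNA of nuclear paraspeckles, is counted here over a row on the plus strand of chr11:65190269-65194003, and its isoforms were not told apart. It was at 2049, 2181 and 2010.0 CPM in controls and 2828, 2584 and 2663 CPM after KMT9a siRNA. The groups did not overlap, with a log2 fold change of 0.37 (SE 0.0507, adjusted p = 2.36e-05 by limma). MALAT1, an RNA of nuclear speckles at chr11:65265233-65273939, was at 1067, 1143 and 1061 CPM and 3015, 2532 and 2652 CPM and rose by 1.32 (SE 0.0627, adjusted p = 1.26e-09 by limma). Per kilobase of the length in the file, the control means were 557 CPM for NEAT1 and 125 CPM for MALAT1.

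LOC100505817, now named LINC02582, was at 351, 388 and 367 CPM in controls and 1561, 1420.0 and 1542 CPM after KMT9a siRNA. Its groups did not overlap, with a log2 fold change of 2.03 (SE 0.0535, adjusted p = 1.01e-11 by limma). LINC-PINT, a long RNA described as a p53 target, went from 18.3, 20.2 and 18.6 CPM to 103, 85.7 and 88.6 CPM and rose by 2.27 (SE 0.0772, adjusted p = 7.4e-11 by limma). LINC01578, now CHASERR, lies 1574 bases from CHD2, a chromatin remodeller that it is known to repress in cis. It was at 12.9, 13.6 and 13.5 CPM and 67.8, 59.3 and 66.3 CPM and rose by 2.27 (SE 0.0704, adjusted p = 3.79e-11 by limma), and CHD2 had 0.71 (limma, adjusted p = 2.35e-08). LINC01133 rose by 2.25 (SE 0.115, adjusted p = 2.51e-09 by limma).

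Of the intergenic RNAs that fell, LINC00520 was at 8.85, 10.7 and 9.26 CPM in controls and 1.85, 1.76 and 1.6 CPM after KMT9a siRNA, and fell by 2.44 (SE 0.125, adjusted p = 2.61e-09 by limma). LOC100506844, now GIHCG, was at 11.4, 10.3 and 10.1 CPM and 2.39, 3.43 and 3.22 CPM and fell by 1.82 (SE 0.138, adjusted p = 9.68e-08 by limma). LOC100506124 fell by 1.43 (SE 0.157, adjusted p = 3.1e-06 by limma). Each had groups that did not overlap, which was a condition for naming them.

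LINC00657, now NORAD, a cytoplasmic RNA that binds Pumilio proteins, was at 719, 732 and 704 CPM and 672, 617 and 672 CPM. The groups did not overlap, and it fell by 0.14 (SE 0.048, adjusted p = 0.0207 by limma), a value smaller than the shift of the median between scalings. LOC100506548 rose by 1.92 (SE 0.0514, adjusted p = 1.16e-11 by limma) and lies 2186 bases downstream of RPL37 on the same strand, whose log2 fold change was 0.26; it was singled out after its values were seen.

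**Figure D5:**
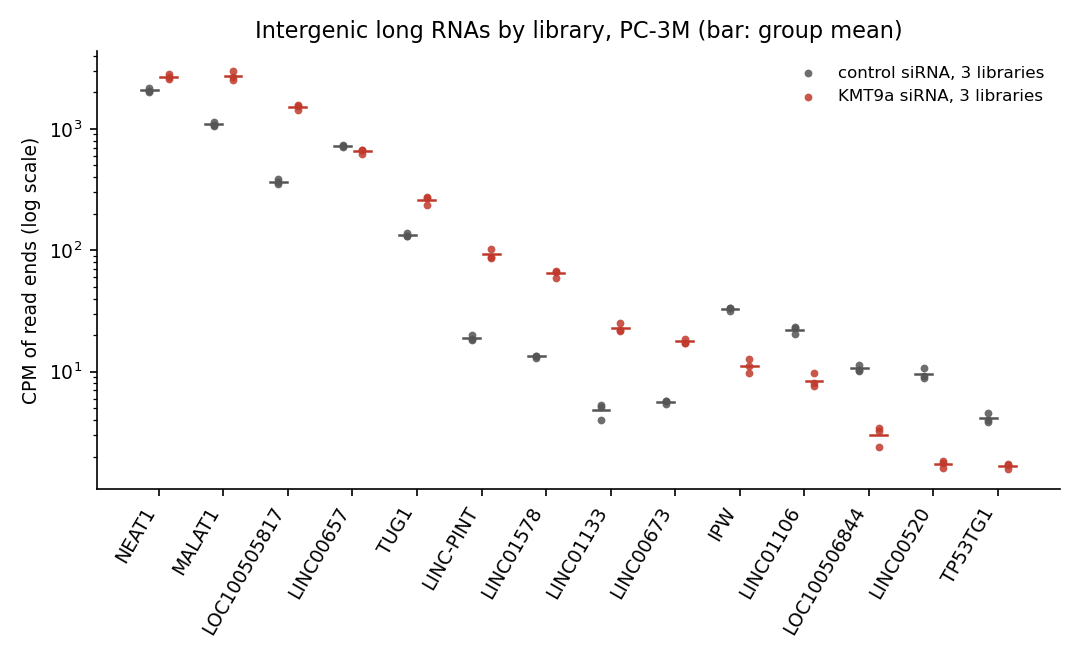
Level of 14 intergenic long RNAs in each PC-3M library (points, CPM of read ends, log axis) with group means (bars), grey for control siRNA and red for KMT9a siRNA. NEAT1 to LINC00673, apart from LINC00657, are higher after KMT9a siRNA, and IPW to TP53TG1 are lower.

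Transcripts that start near a coding gene were counted apart. Of 183 long members whose start lies within 1000 bases of the start of a coding row on the opposite strand, without a coding row on their own strand, 49 rose and 70 fell, with a median log2 fold change of -0.14. Of the 250 without such a start, 107 rose and 77 fell, with a median of 0.16. Scaling by column totals gave 41 higher and 88 lower of the 183, and 92 and 92 of the 250. Over all tested genes 37.2% were higher and 37.3% lower. No test was made between the 183 and the 250.

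Named lists of long RNAs were described by counts. Of 27 snoRNA hosts on the list, 19 were members, and 13 rose and 2 fell, with a median of 0.96; scaling by column totals gave 13 and 5. Of 22 symbols on the microRNA host list, 11 were members with both group means of at least 20, and 7 rose and 2 fell, with a median of 0.84. H19, MIR503HG and the hairpin row MIR24-2, also on that list, passed through 1 group only. CYTOR on that list stands in the table under its older symbol LINC00152, is not in these counts, and fell by 0.81 (SE 0.08, adjusted p = 1.24e-06 by limma). Of 16 long RNAs linked to p53 or senescence, 11 were members. In that list 7 rose, among them NEAT1, LINC-PINT, CDKN2B-AS1 and DLEU2 at 0.84, and 4 fell, namely PVT1, TP53TG1 at -1.29, LINC00467 at -1.05 and DLEU1 at -0.81.

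Of 20 long RNAs linked to prostate cancer, 8 were members. In this list 6 rose, among them TUG1 at 0.97 and LINC01116 at 0.81, and CBR3-AS1 at -0.94 and LINC00963 at -0.87 fell. Of 12 nuclear and architectural RNAs, 5 were members; 4 rose, with FIRRE at 0.55, and KCNQ1OT1 had 0.14 (limma, adjusted p = 0.568). Of 11 symbols linked to heat, hypoxia or stress, among which LINC00657 and NORAD name the same RNA, 4 were members; MIR210HG, HIF1A-AS2 and TUG1 rose, with HIF1A-AS2 at 0.82, and LINC00657 fell. Under scaling by column totals 2 of that list were higher.

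Rows that share a strand with coding rows need separate reading. This held for 127 members, many of them readthrough transcripts, which join the exons of neighbouring genes and share their reads. SENP3-EIF4A1, which holds 3 snoRNAs of EIF4A1, was at 1240.0, 1233 and 1222 CPM and 1082, 1143 and 1114 CPM, and fell by 0.15 (SE 0.0428, adjusted p = 0.00771 by limma). BLOC1S5-TXNDC5 rose by 1.47 and TMX2-CTNND1 by 0.22, EEF1E1-BLOC1S5 fell by 1.32, and their reads cannot be told apart from those of the coding genes they join. The 35 sense-overlapping members outside the other classes gave 18 higher and 11 lower.

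At the edge of the rule, the members just inside were LOC441242, LINC00672, ZNF625-ZNF20, LINC01125 and LINC00910, with higher group means from 20.1 to 20.7 on the deposited scale. Just outside were PP14571, LOC100134868, MIR1306, DNMBP-AS1 and LOC100129620, from 19.5 to 19.9. The authors' deposited table called 477 of all 664 members at an adjusted p under 0.05. Of these, 473 were also called here with the same sign and 0 with the opposite sign.

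In MCF10A, few of these transcripts could be measured. Depth was 181064 to 255642 read ends per library, and 570 of the 664 members were at 0 in all 6 libraries. Of the 94 with a read end, 13 could be tested, and 6 of these have no coding row on their strand. limma called 0 of these 13, as did edgeR, DESeq2 and limma-voom, with 1 at an unadjusted p under 0.05 and a smallest adjusted p of 0.233. Over all 1049 genes tested in MCF10A, 0.477% were called. Without KMT9a siRNA replicate 2, which stood apart in that line as well, LINC00461 and MIR3661 were called (limma), in a fit that called 76 genes higher and 94 lower of 1105, and with no filter on low counts RBM5-AS1 was. At this depth a difference in the other members was not detectable.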

How the data were processed

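RNA of PC-3M and MCF10A cells was sequenced in 4 groups of 3 libraries. The submitters' processing notes name STAR, HOMER, edgeR and the hg19 build; versions, strand handling and filters are not given in the sources used here. Per the file headers, the authors deposited for each line a table of transcript rows with 6 columns of scaled signal, their log2 fold change and their p-values. All 100.0% of the deposited signal values above 0 were whole multiples of a step per library, within 0.1 step, so read ends were recovered as counts; 0 per-sample columns were left unused.

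The row of highest mean stood for a symbol. Genes were kept by the filterByExpr function of edgeR (minimum count 10, total 15). The design named limma for scaled values: limma 3.58.1 in R 4.3.3, with a mean-variance trend, was fitted per line to log2 of the deposited signal, TMM-scaled, after adding a pseudocount of 1, which understates the change of low genes. Adjusted p-values are Benjamini-Hochberg, threshold 0.05. CPM values are TMM-scaled, relative to tested genes. The edgeR 4.0.16 quasi-likelihood test on the recovered reads gave 5595 higher and 5552 lower calls for PC-3M, and 1 and 5 for MCF10A. DESeq2 1.42.0, limma-voom, other scalings, pseudocounts and filters, and each library left out were alternatives.

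Members were classed in order as small RNA, host (a same-strand span holding a small RNA row, or a host symbol), antisense, sense-overlapping and intergenic. Named transcripts are, per class, the 4 that changed most each way at the threshold with both group means of at least 20 and groups that do not overlap, the 3 of highest mean, list members and partners; others are said to be singled out. The members and lists were chosen with earlier results of these data known. On simulated PC-3M counts 200 genes were changed, and 14838 genes were kept for the test. There limma found 78.5% of the genes changed 1.5-fold, 90.9% at 2-fold and 96.9% at 4-fold, with 7 calls among 14642 unchanged genes. In the real data 74.5% of tested genes were called, a far larger share, so these rates may not carry over. Same-numbered PC-3M libraries had deviations correlated at -0.0415, -0.0205 and 0.0372, so the numbers were not taken as pairs.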

Additional observations from a re-analysis of the deposited data

Results flagged for a closer look

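RBM5-AS1, which lies inside RBM5 on the opposite strand, was higher after KMT9a siRNA in every PC-3M library and lower in every MCF10A library, where it did not pass the test. In PC-3M it was at 8.78, 8.85 and 7.86 CPM in the control libraries and at 13.9, 13.6 and 16.4 CPM after KMT9a siRNA, a log2 fold change of 0.78 (limma, adjusted p = 1.1e-05), and RBM5 had 0.41. In MCF10A every KMT9a siRNA library lay below every control, with at least 845 CPM in each control and 501, 106 and 827 CPM after KMT9a siRNA. CPM is relative to the genes tested in each line, 14958 in PC-3M and 1049 in MCF10A. MCF10A depth was 181064 to 255642 read ends per library. Levels of the 2 lines are thus not on a common scale and are not compared. The log2 fold change there was -1.31 (limma, adjusted p = 0.369), and -0.49 without KMT9a siRNA replicate 2. With no filter on low counts it passed in MCF10A, with -1.44 (limma, adjusted p = 0.0112), and over the other alternatives the adjusted p ranged from 0.0642 to 0.69. The difference between the lines was not tested. Without strand, reads of RBM5-AS1 and RBM5 cannot be told apart.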

How the results depend on the processing

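The 43 members picked per class by size of difference or by mean gave 688 values under the alternatives. Of these, 687 kept their direction and side of the threshold, 0 reversed, and TMX2-CTNND1 no longer passed under scaling by column totals, at 0.05. Members named for other reasons, such as many on the lists, are not in this count. In the snoRNA host list, scaling by column totals moved the calls from 13 higher and 2 lower to 13 and 5. The counts over all 664 members and over each class, those that passed through 1 group included, stayed within 1.5 times under each scaling, test, filter, pseudocount and left-out library tried. With restrictions chosen after seeing the data, the 65 other noncoding members higher became 41 with both group means of at least 20 and 17 without a coding row on the same strand, where the 29 lower became 4, since fewer members are counted. A replicate block gave 264 members higher and 213 lower; it kept 471 calls, lost 11 and gained 6. Leaving out single PC-3M libraries gave 253 to 264 higher and 195 to 228 lower. The depth of the MCF10A libraries left 13 members to test, and there limma recovered 31.2% of simulated 2-fold changes over 998 genes.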

Other observations

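Genes that process microRNA hairpins, picked after the microRNA rows were seen, had unlike values in PC-3M. DGCR8, the RNA-binding partner of Drosha, went from 27.4 ± 0.458 to 56.5 ± 2.41 CPM (SD, n = 3 each), a log2 fold change of 1.04 (limma, adjusted p = 7.76e-09). DICER1, which cuts the hairpin in the cytoplasm, rose by 0.78 (limma, adjusted p = 1.7e-08) and AGO2, which binds the mature microRNA, by 0.34 (limma, adjusted p = 0.000741). XPO5, the exporter of hairpins, fell by 0.34 (limma, adjusted p = 4.5e-05). DROSHA was at 67.2 ± 1.17 and 62.6 ± 1.97 CPM and did not pass, with -0.10 (limma, adjusted p = 0.097).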
